A study of Mus musculus with 6 samples.

Results

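The renin-angiotensin genes *Ren1*, *Agt*, *Ace*, *Agtr1a* and *Atp6ap2* were followed through single-cell RNA-Seq data of lower abdominal muscle (LAM) tissue, the muscle wall that gives way in scrotal hernia. They were taken by name and are 5 of the 16494 genes with a row in the deposited count table. Tissue came from 3 wild-type (WT) and 3 Aromhum (Arom) mice, all male, all of the FVB/N strain and all aged 9-10 weeks. Arom mice carry a piece of human genomic DNA that holds the aromatase gene *CYP19A1* together with its own promoters, so no promoter of a chosen cell type drives it, and they are labelled as having scrotal hernia. The labels name no treatment. The questions put to the data were which cells of LAM tissue carry RNA of each gene, and whether those levels differed between genotypes.

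Angiotensinogen, encoded by *Agt*, is cut by renin into angiotensin I, and angiotensin-converting enzyme, encoded by *Ace*, trims that peptide to angiotensin II. Angiotensin II acts through the type 1 receptor, encoded in the mouse by *Agtr1a* and *Agtr1b*, on the tone of blood vessels and on matrix production by fibroblasts. Renin in the circulation comes from juxtaglomerular cells of the kidney and angiotensinogen mostly from the liver, while ACE sits on endothelial surfaces. The product of *Atp6ap2* is the (pro)renin receptor, which is also an accessory subunit of the vacuolar proton pump found in cells of every kind.

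Every deposited barcode was used, 10168, 10820 and 7905 in WT1, WT2 and WT3 and 12011, 13764 and 8979 in Arom1, Arom2 and Arom3, with 64958237 to 111826460 unique molecular identifiers (UMIs) per mouse. UMIs of *CYP19A1* numbered 0 in each WT mouse and 770, 797 and 787 in the Arom mice. Its level in Arom mice was highest in glial cells, at 39.0, 45.7 and 47.1 CPM, where CPM is the UMIs of a gene per 1000000 UMIs of the same cells of the same mouse. Clustering gave 21 cell groups named from marker genes, with 5175 barcodes left as mixed and 1060 as unnamed, and the 22778 fibroblast-like cells were divided again. A group name means cells like the type named, by those markers. None of the 5 genes was a marker or entered the clustering. Of the 63175 barcode sequences, 471 occurred in more than 1 mouse, and they make up 1.48% of all barcodes.

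The *Esr1*-high fibroblasts, named after the estrogen receptor gene, were the cells in which *Ren1* RNA was concentrated. They numbered 306, 162 and 123 cells in WT mice and 1442, 1847 and 694 in Arom mice, or 3.01, 1.497 and 1.56% of WT cells and 12.01, 13.4 and 7.73% of Arom cells. Their *Esr1* level was 283, 307 and 265 CPM in WT mice and 167, 197 and 305 CPM in Arom mice, against 20.8 to 29.7 CPM in the other fibroblast-like cells. Their markers came from the study, which had chosen them on these samples and had listed *Ren1* and *Ace* among its own fibroblast cluster markers, so the placing of both genes is not independent of it. The 3 sub-clusters of the group were unequally filled. Sub-cluster 11 held 275, 154 and 117 of the WT cells but 35, 60 and 113 of the Arom cells, and sub-clusters 1 and 6 held the rest, most of them from Arom mice.

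*Ren1* lies at chr1:133350674-133360320 on the plus strand (GRCm38.p6, the RefSeq annotation of the build that the submitters' processing notes name as mm10) and *Agt* at chr8:124556587-124569706 on the minus strand. Each was the gene closest to the other in distribution over cell groups among 11703 genes, with a Pearson r of 0.929 between their log2(mean CPM + 1) over 19 groups. The points share libraries and depth, so this is a description. T cells, high for both genes by mean level, had most of these UMIs in a few barcodes. Their 5 highest cells held 99.0 and 96.2% of the *Ren1* UMIs and 90 and 88% of the *Agt* UMIs in Arom1 and Arom2. The 250 bases before the annotated start of each gene are therefore shown, 5′ to 3′ on the gene's own strand, from RefSeq at chr1:133350424-133350673 (+) and chr8:124569707-124569956 (−), with motif matches in capitals.
Ren1: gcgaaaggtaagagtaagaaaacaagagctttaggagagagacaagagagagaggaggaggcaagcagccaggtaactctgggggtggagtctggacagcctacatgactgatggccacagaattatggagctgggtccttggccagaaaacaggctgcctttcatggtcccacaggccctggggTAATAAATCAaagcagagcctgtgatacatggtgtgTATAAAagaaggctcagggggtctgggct
Agt: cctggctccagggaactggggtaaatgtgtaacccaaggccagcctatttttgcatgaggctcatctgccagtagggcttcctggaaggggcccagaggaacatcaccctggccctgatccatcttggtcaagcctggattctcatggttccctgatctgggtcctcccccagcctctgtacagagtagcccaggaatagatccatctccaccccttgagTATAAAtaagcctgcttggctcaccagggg
Of the 5 members, 4 had such a window, and 4 motifs were searched on both strands in the 32851 windows of all genes. TATAAA, the TATA box, is in 12.4% of windows. It begins 29 bases before the start of *Ren1* and 30 bases before that of *Agt*. TAAT followed after 2 bases by ATCA, an element bound by HOX proteins and their partners, is in 0.539% of windows and begins 65 bases before the *Ren1* start, without overlap with the TATA box. Neither the estrogen response element, GGTCA and TGACC with 3 bases between, found in 0.0639% of windows, nor the cyclic AMP element TGACGTCA, found in 1.55%, is in the 2 sequences shown.

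*Ren1* was highest in the *Esr1*-high fibroblasts in each of the 6 mice, above every other named group. Its levels there were 34040.0, 1906 and 4670 CPM in WT1, WT2 and WT3, and 27019.6, 15655 and 25346 CPM in Arom1, Arom2 and Arom3. WT1 lay above all Arom mice while WT2 and WT3 lay below them, so the genotypes overlapped. Some mouse strains carry *Ren2*, a near-identical copy of *Ren1*. It was not analysed here, whether these mice have it is not given in the sources used here, and the *Ren1* counts are uncertain to that extent. Among fibroblast-like cells the tenocyte progenitors came next, with 4235, 84.3 and 1127 CPM in WT mice and 2974, 1806 and 1777 CPM in Arom mice. The *Tppp3* *Smoc2* fibroblasts followed, with 461, 39.2 and 101 CPM in WT mice and 1752, 649 and 609 CPM in Arom mice, below the tenocyte progenitors in 6 of 6 mice although the ranges overlapped. The 5 highest tenocyte progenitors held 23.5, 58.5 and 59.2% of their *Ren1* UMIs in WT and 92.7, 69.2 and 65.7% in Arom mice. Cells with any *Ren1* UMI were 46.1, 33.2 and 43.7% of tenocyte progenitors and 54.5, 37.2 and 45.4% of *Tppp3* *Smoc2* fibroblasts in Arom mice. In each WT mouse the tenocyte progenitors had the larger such share. Arom shares of this size were not particular to these groups, as *Dmkn* fibroblasts had 46.9, 24.4 and 50.1%. After each cell was thinned to 3000 UMIs, the Arom shares were 23.5, 25 and 17.3% in tenocyte progenitors. They were 38.8, 25.6 and 20.4% in *Tppp3* *Smoc2* fibroblasts and 23.2, 9.30 and 16.4% in capillary endothelial cells.

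**Figure D1:**
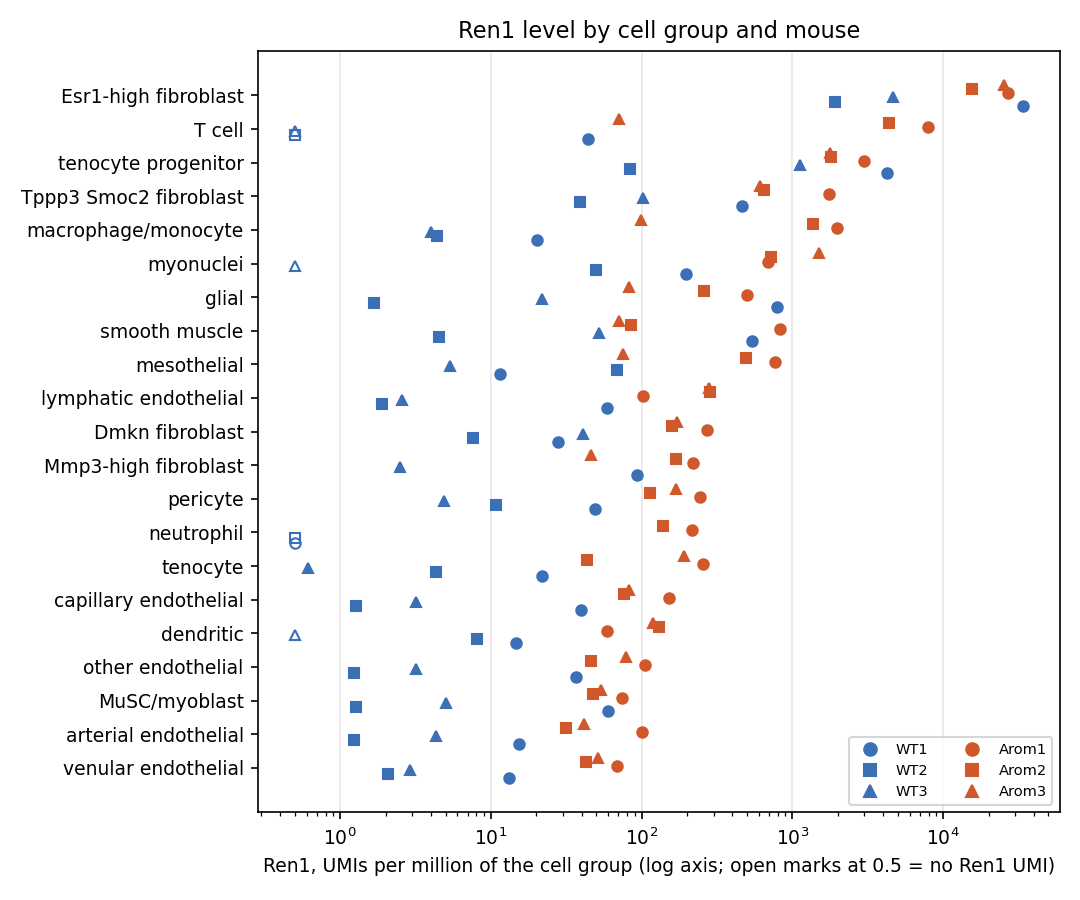
*Ren1* level in CPM of each cell group, on a log axis, with 1 mark per mouse and genotype shown by color. Open marks at the left edge stand for no *Ren1* UMI. The *Esr1*-high fibroblasts sit between 1906 and 34040.0 and the capillary endothelial cells between 1.27 and 153.

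Counted over all cells, *Ren1* UMIs numbered 170300, 5565 and 13879 in WT mice and 821633, 497181 and 427136 in Arom mice. That is 0.258, 0.00764 and 0.0214% of all UMIs in WT mice and 0.749, 0.445 and 0.461% in Arom mice. All 3 Arom mice were above all 3 WT mice, and WT1 lay between the other WT mice and the Arom mice. In these sums more cells of a type and more RNA per cell cannot be told apart. The *Esr1*-high fibroblasts held 71.7, 66.3 and 52.9% of the *Ren1* UMIs of WT mice and 89.7, 91.2 and 89.9% of those of Arom mice. The means were 63.6% ± 9.68 (SD, n = 3) in WT and 90.3% ± 0.814 (SD, n = 3) in Arom mice, and a 2-sided exact permutation test of the difference of 26.6 points gave p = 0.1, the lowest this design allows. The shares did not overlap, but where the cells were instead taken from the tenth of 30 unlabelled runs of columns in the deposited table, a choice made after seeing the data, they were 90.6, 84.9 and 88.7% in WT and 90.8, 90.02 and 92.0% in Arom mice. At clustering resolution 1.2, which left 33, 13 and 6 cells of the group in WT mice, the shares were 9.43, 6.76 and 3.36% in WT and 88.6, 89.5 and 84.6% in Arom mice. Within the limits on cells stated in the study's methods they were 58.2, 46.8 and 14.9% in WT and 63.3, 78.2 and 66.9% in Arom mice. Those limits left 40, 4 and 8 cells of the group in WT mice and 70, 104 and 26 in Arom mice. The WT share thus depended on how the cells were chosen.

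**Figure D2:**
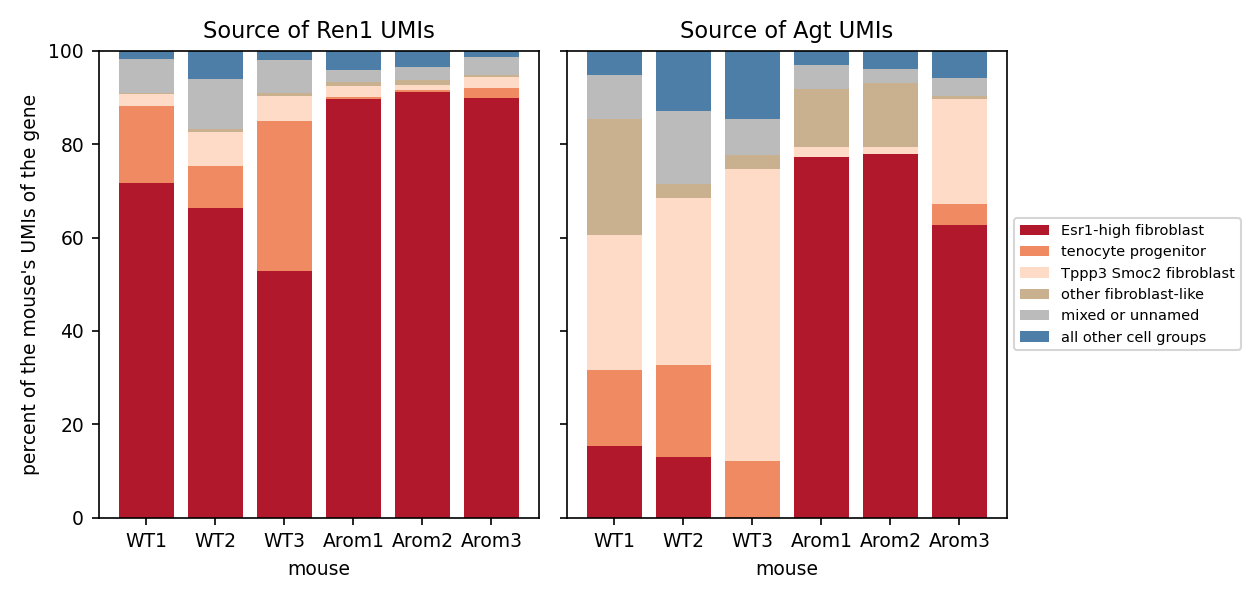
Share of each mouse's *Ren1* UMIs (left) and *Agt* UMIs (right), in percent, by the cell group that held them, 1 stacked bar per mouse. The *Esr1*-high part of the *Ren1* bars is 52.9 to 71.7% in WT and 89.7 to 91.2% in Arom mice, and that of the *Agt* bars 0 to 15.4% and 62.6 to 77.9%.

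Within the *Esr1*-high fibroblasts the cells differed widely. The median cell held 123, 1 and 3 *Ren1* UMIs in WT mice and 191, 80 and 208 in Arom mice, at a median depth of 9920.5, 11085 and 11597 UMIs in WT and 17382, 14081 and 20096 UMIs in Arom mice. The highest cell, in Arom1, held 6340 *Ren1* UMIs, and *Ren1* made up as much as 28.0% of the UMIs of a cell in Arom3. At least 1000 *Ren1* UMIs were found in 37, 0 and 0 WT cells and in 249, 100 and 132 Arom cells. WT1 thus had such cells and the other WT mice had none. Cells with any *Ren1* UMI made up 87.6, 50.6 and 57.7% of the group in WT mice and 95.5, 91.6 and 94.4% in Arom mice. After each cell was thinned to 3000 UMIs, leaving out 3 to 45 shallower cells per mouse, these shares were 82.8, 36.5 and 50.8% in WT and 89.3, 83.5 and 85.8% in Arom mice. All Arom mice remained above all WT mice, by the least against WT1.

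**Figure D3:**
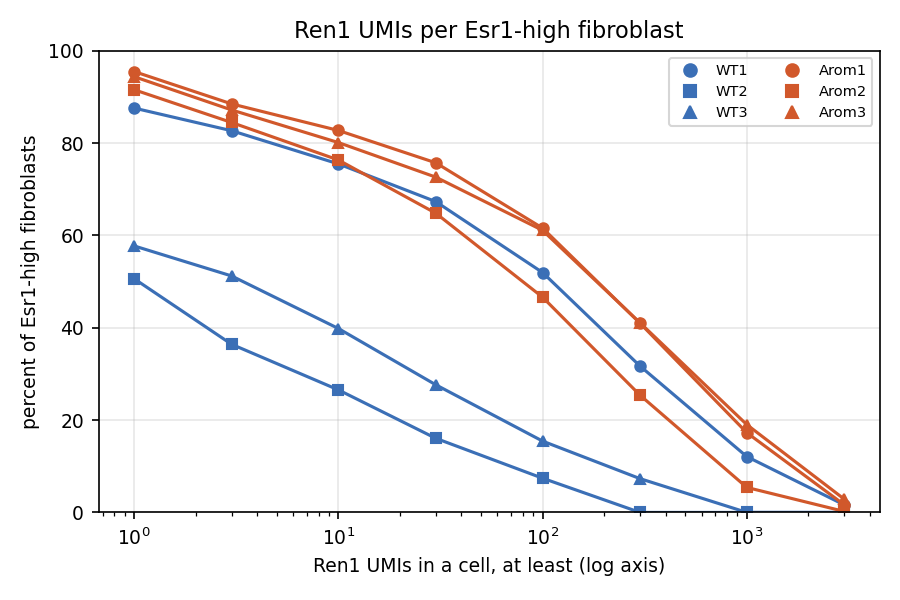
Percent of *Esr1*-high fibroblasts with at least the number of *Ren1* UMIs on the horizontal log axis, 1 line per mouse. At 100 UMIs the lines of WT2 and WT3 are at 7.41 and 15.4% and the lines of WT1 and the Arom mice between 46.6 and 61.6%.

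Sub-cluster 11, which had cells from every mouse in number, gave *Ren1* levels of 36434, 2032 and 4857 CPM in WT mice and 38993, 24391 and 22633 CPM in Arom mice. Sub-cluster 1 gave 20113, 12394 and 16106 CPM in Arom mice and sub-cluster 6 gave 46150.2, 23593 and 38721 CPM. The order of the WT mice in sub-cluster 11 was that of the whole group, with WT1 within the range of the Arom mice.

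In capillary endothelial cells, which are not known to make renin, *Ren1* was found at 39.4, 1.27 and 3.17 CPM in WT mice and 153, 75.9 and 82.1 CPM in Arom mice. Each of these values was 1.48 to 2.04% of the level in all cells of the same mouse together. After thinning to 3000 UMIs, 7.43, 0.483 and 0.743% of capillary cells had a *Ren1* UMI in WT mice and 23.2, 9.30 and 16.4% in Arom mice, over the 43 to 829 cells per mouse that were deep enough, from median depths of 1365 to 3194 UMIs before thinning. Levels at or below this share of a mouse's total, called the background share, are not read as expression here. It is a working cutoff that the capillary cells meet by construction, and the source of these UMIs was not tested. T cells and macrophages lay far above this share in Arom1 and Arom2. Their *Ren1* levels were 7975 and 4396 CPM in T cells and 1965 and 1379 CPM in macrophages of Arom1 and Arom2, against 70.8 and 99.7 CPM in Arom3. In the other mice T cells were at 0 to 1.70% and macrophages at 0.789 to 5.75% of the level in all cells, the highest being WT2 with 6 UMIs. A few barcodes carried these counts, as the 5 highest T cells held 99.0 and 96.2% and the 5 highest macrophages 53.0 and 70.4% of the group's *Ren1* UMIs in Arom1 and Arom2. Other groups also lay far above the background share in some mice. Mesothelial cells of WT2 were at 89.7% of the level in all cells, and myonuclei of WT2 and Arom3 at 64.9 and 32.6%. Glial cells of WT1 were at 30.6%, and smooth muscle cells of WT1 and WT3 at 20.8 and 24.3%. In each of these the 5 highest cells held 94.8 to 100% of the *Ren1* UMIs.

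Between genotypes, *Ren1* did not pass the test in the *Esr1*-high fibroblasts. UMIs were summed per mouse and tested with edgeR (quasi-likelihood F test, p adjusted over all genes tested by Benjamini-Hochberg), and 14.3% of the 11875 genes tested there passed at 0.05. The log2 fold change of *Ren1* in Arom over WT mice was 0.74 ± 0.89 (SE, n = 3 per genotype, adjusted p = 0.607). Without WT1 it was 2.80 ± 0.47 with an adjusted p of 0.0273, so this 1 mouse decided the call. Mitochondrial UMIs moved with genotype, as the median *Esr1*-high cell had 4.45, 5.89 and 5.02% in WT and 3.38, 3.82 and 3.45% in Arom mice, and 38.0, 68.2 and 40.1% of all WT barcodes and 30.4, 30.9 and 27.6% of all Arom barcodes had over 5%. With only barcodes of at most 5%, the *Ren1* value was 0.53 (adjusted p = 0.755), and the calls of *Ace* and *Agtr1a* in these cells, *Ace* and *Ren1* in endothelial cells and *Atp6ap2* in fibroblast-like cells were made as with all barcodes. WT1 also had more *Mmp3*-high fibroblasts than the other WT mice, 415 against 3 and 34, and its *Pgr* level in *Esr1*-high fibroblasts was 19.2 CPM, above the 5.68 and 12.7 CPM of the other WT mice and below the 110.1 to 203 CPM of the Arom mice. *Pgr*, the progesterone receptor gene, is a known target of the estrogen receptor.

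In sums over all cells *Ren1* had a log2 fold change of 2.53 ± 1.27 (edgeR quasi-likelihood test, Benjamini-Hochberg adjusted p = 0.191), and 5.31 with an adjusted p of 0.0244 without WT1. In all fibroblast-like cells it was 2.13 ± 1.05 (adjusted p = 0.200) and in the fibroblast-like cells that were not *Esr1*-high 0.12 ± 0.96 (adjusted p = 0.947). A test of whether the effect differed between *Esr1*-high and other fibroblast-like cells gave a difference of 0.63 ± 1.497 on the log2 scale (adjusted p = 0.952). Both groups came from the same mice, and with the mouse as a block the difference was 0.68 ± 0.36 (adjusted p = 0.368), and 0 of the 5 members passed (edgeR), where 2.86% of genes passed and where *Ace*, *Agtr1a* and *Agt* had an unadjusted p of 0.00170, 0.0271 and 0.00320. *Ren1* passed in endothelial cells, at 26.7, 1.37 and 3.41 CPM in WT and 87.2, 45.9 and 59.0 CPM in Arom mice (2.70 ± 0.77, adjusted p = 0.0431). The call was lost in 6 of 14 alternative settings, namely without WT2, WT3, Arom1 or Arom2, with DESeq2 and at resolution 1.2 (adjusted p = 0.0542 to 0.142). These values were 1.03 to 1.80% of the level in all cells of the same mouse and moved with that total. They lie within the background share, so the call is not read as a change in expression. The part of that total in the result was not tested. The effect on *Ren1* in *Esr1*-high fibroblasts minus that in endothelial cells was -1.89 ± 1.38 (adjusted p = 0.483), and -1.87 ± 0.12 with the mouse as a block (adjusted p = 4.15e-04), where 7.43% of genes passed. Of single groups, tested after seeing the data, venular (2.98 ± 0.42) and arterial endothelial cells (3.22 ± 0.57) passed at 0.511 to 2.71% and 0.591 to 2.03% of that level, where 1.39% and 1.19% of genes passed. Pericytes passed too (3.05 ± 0.45), with 49.1, 10.9 and 4.86 CPM in WT and 244, 114 and 168 CPM in Arom mice, or 1.90 to 14.2% of the level in all cells, where 0.0408% of genes passed. The 14.2% was WT2 with 9 UMIs, and Arom pericytes were at 2.57 to 3.65%. Tenocytes, *Dmkn* fibroblasts and macrophages also passed, at up to 5.65, 19.0 and 31.0% of the level in all cells, where 1.46, 1.07 and 0.659% of genes passed. These maxima were WT2 with 9 UMIs, WT3 with 71 UMIs and Arom2. Arom mice were at 0.973 to 4.11% in tenocytes and 3.57 to 3.70% in *Dmkn* fibroblasts. In Arom1, Arom2 and Arom3 the 5 highest tenocytes held 79.5, 35.4 and 77.1% of that group's *Ren1* UMIs. The 5 highest *Dmkn* fibroblasts held 54.0, 66.2 and 54.9% of theirs. Of 10 alternatives, the venular call was lost in 2, the pericyte call in 3, the arterial call in 4 and the macrophage call in 5. Without WT2 or without Arom1 all 4 were lost (adjusted p = 0.0643 to 0.152 and 0.0595 to 0.0974), and the arterial call was also lost without Arom2 and the macrophage call without WT1, WT3 or Arom2. DESeq2 did not make the pericyte call (adjusted p = 0.692) or the arterial call (adjusted p = 0.116). No alternative was run for tenocytes or *Dmkn* fibroblasts.

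*Agt*, the gene of the substrate, was low in LAM tissue and highest by mean level in the same fibroblasts as *Ren1*. It had 527, 232 and 198 UMIs over all cells in WT mice and 6171, 5450 and 532 in Arom mice. In *Esr1*-high fibroblasts its level was 22.6, 15.5 and 0 CPM in WT mice and 175, 147 and 22.0 CPM in Arom mice, where the 0 in WT3 allows up to 1.91 CPM (3 counts, counting error only). Among named groups they were highest in 5 of 6 mice, WT1 by little over the *Mmp3*-high fibroblasts at 22.5 CPM. Arom1 and Arom2 stood well above all WT mice, while Arom3 was level with WT1. Cells with an *Agt* UMI were 7.52, 3.70 and 0% of the group in WT mice and 26.2, 31.6 and 9.94% in Arom mice, or 3.37, 1.92 and 0% and 15.4, 17.6 and 3.55% after thinning to 3000 UMIs. In Arom3 the 5 highest cells held 42.3% of these *Agt* UMIs, against 14.8 and 8.25% in Arom1 and Arom2. In WT1 and WT2 they held 66.7 and 96.7% of only 81 and 30 UMIs, so those WT levels rest on a few cells. Capillary endothelial cells had at most 1 *Agt* UMI in any mouse.

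The genotype effect on *Agt* in *Esr1*-high fibroblasts was 3.06 ± 0.92 on the log2 scale and missed the threshold (edgeR quasi-likelihood test, Benjamini-Hochberg adjusted p = 0.0623). Without Arom3 it was 3.53 ± 0.59 with an adjusted p of 0.00607, and it also passed with the mouse number as a block (3.28, adjusted p = 0.00105) and in the tenth run of columns (3.26, adjusted p = 0.0475). In sums over all cells it was 3.01 ± 0.91 (adjusted p = 0.0583) and in all fibroblast-like cells 2.47 ± 0.76 (adjusted p = 0.0712). The share of a mouse's *Agt* UMIs held by the *Esr1*-high fibroblasts was 15.4, 12.9 and 0% in WT mice and 77.2, 77.9 and 62.6% in Arom mice, 9.43% ± 8.26 against 72.5% ± 8.62 (SD, n = 3 each, 2-sided exact permutation p = 0.1, the lowest possible). The groups did not overlap, with Arom3 on the side of its genotype although its total was close to that of WT1. In such shares more cells of a type and more RNA per cell cannot be told apart. Arom3 and WT1 had similar *Agt* levels in these cells, 22.0 and 22.6 CPM, while the cells were 7.73 and 3.01% of all their cells. Within the study's limits on cells, however, the group held 0% in each WT mouse and 7.07% ± 5.69 (SD, n = 3) in Arom mice. Those limits left 40, 4 and 8 cells of the group in WT mice and 70, 104 and 26 in Arom mice. The Arom cells left held 8, 77 and 3 *Agt* UMIs. In WT mice most other *Agt* UMIs were in *Tppp3* *Smoc2* fibroblasts, at 16.6, 8.04 and 16.9 CPM, and tenocyte progenitors, at 12.9, 7.63 and 6.07 CPM, while the *Mmp3*-high and *Dmkn* fibroblasts of WT1 held 15.7 and 8.92% of its *Agt* UMIs. In Arom mice those groups had 11.5, 9.45 and 7.21 CPM and 4.10, 5.83 and 4.99 CPM, and neither difference passed (adjusted p = 0.327 and 0.325).

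**Figure D4:**
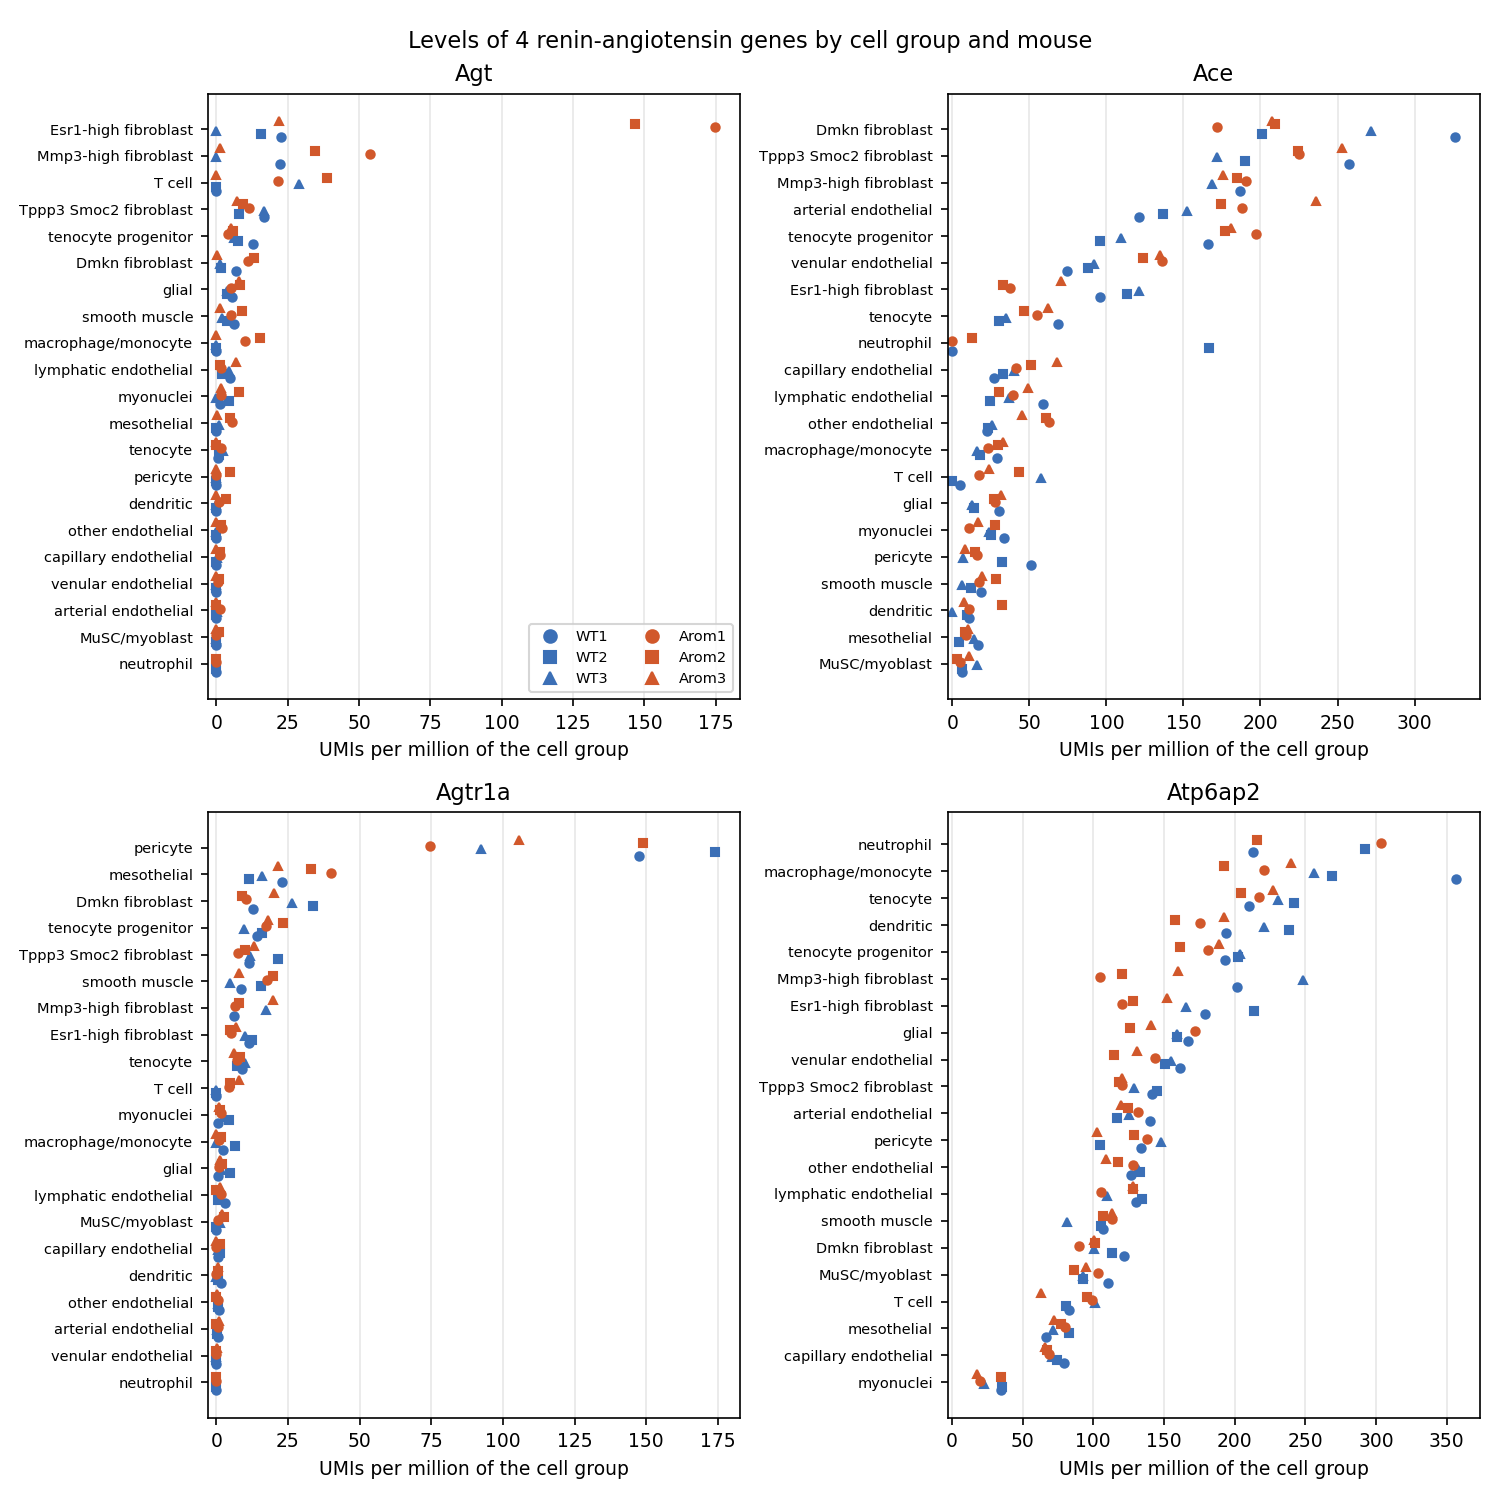
Levels of *Agt*, *Ace*, *Agtr1a* and *Atp6ap2* in CPM of the cell group, 1 panel per gene with a linear axis of its own and 1 mark per mouse with at least 10 cells. *Agtr1a* in pericytes sits between 74.4 and 174 and in every other group at or under 40.0, while *Atp6ap2* is at 62.9 or more in every group but the myonuclei.

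*Ace*, at chr11:105967948-105989964 on the plus strand, was carried by fibroblast-like and endothelial cells, and its level differed between genotypes in opposite directions in *Esr1*-high fibroblasts and in endothelial cells. The gene has a promoter used in body tissues and another used in the testis, which counts at the 3′ end cannot tell apart. By mean level over all mice it was highest in *Dmkn* fibroblasts, at 326, 201 and 271 CPM in WT mice and 172, 209 and 208 CPM in Arom mice. *Tppp3* *Smoc2* fibroblasts had 257, 190.1 and 171 CPM in WT and 225, 224 and 253 CPM in Arom mice, and these 2 groups did not differ beyond the spread over mice. The *Dmkn* fibroblasts were the higher of the 2 in each WT mouse and the lower in each Arom mouse. *Mmp3*-high fibroblasts and arterial endothelial cells came next by mean level, at 181 ± 8.94 (SD, n = 5) and 168 ± 41.2 CPM (SD, n = 6). Capillary endothelial cells had less, 27.4 to 68.2 CPM over the 6 mice.

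In the *Esr1*-high fibroblasts *Ace* was lower in Arom mice. The levels were 95.9, 114 and 121 CPM in WT mice and 37.5, 32.7 and 70.5 CPM in Arom mice, with no overlap, and the log2 fold change was -1.24 ± 0.27 (edgeR quasi-likelihood test, Benjamini-Hochberg adjusted p = 0.0226). Of the 5 members tested here 2 passed, both lower in Arom mice, against 7.63% of all genes tested that were lower. In sub-cluster 11 alone the levels were 89.6, 109.5 and 119 CPM in WT and 54.5, 37.5 and 59.0 CPM in Arom mice (-1.10, adjusted p = 0.0682). Sub-cluster 6, nearly all from Arom mice, had 9.92, 15.05 and 30.5 CPM. The call was lost without any 1 mouse other than Arom3 (adjusted p = 0.0556 to 0.0908) and at resolution 1.2 (-1.65, adjusted p = 0.0578). Within the study's limits on genes and mitochondrial UMIs, which left as few as 4 of these cells in a WT mouse, the value was 0.42 (adjusted p = 0.833).

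In endothelial cells *Ace* was higher in Arom mice. The levels were 57.7, 59.7 and 72.6 CPM in WT mice and 124, 105 and 128 CPM in Arom mice, with all Arom mice above all WT mice, and the log2 fold change was 0.92 ± 0.14 (edgeR quasi-likelihood test, Benjamini-Hochberg adjusted p = 0.00541). The call held in all 14 alternative settings tried. Here 14.1% of 11972 genes passed, 8.19% in the higher direction, and with the mouse number as a block 2829 genes passed in place of 1692. Of the 3 members tested, *Ace* and *Ren1* passed and *Atp6ap2* did not (0.04 ± 0.12, adjusted p = 0.838). The makeup of the endothelial cells differed between genotypes, as venular cells were 15.3, 8.38 and 12.1% of them in WT and 41.4, 31.8 and 28.4% in Arom mice, and capillary cells 45.6, 56.5 and 40.6% and 19.8, 24.3 and 24.3%. Within venular cells *Ace* was 74.2, 87.9 and 91.7 CPM in WT and 136, 124 and 135 CPM in Arom mice (0.52 ± 0.13, adjusted p = 0.0839). Within capillary cells it was 27.4, 32.7 and 39.8 CPM in WT and 41.1, 51.1 and 68.2 CPM in Arom mice (0.67 ± 0.20, adjusted p = 0.298), and within arterial cells 121, 137 and 153 CPM and 188, 175 and 236 CPM (0.53 ± 0.16, adjusted p = 0.143). All Arom mice were above all WT mice in each of these groups, by less than in the endothelial sum, and single groups were tested after seeing the data. With the mouse number as a block all 3 passed (adjusted p = 0.0321 in venular, 0.0109 in capillary and 0.0110 in arterial cells), and with no filter on low counts the venular and capillary cells did (0.0364 and 0.0478). Endothelial cells with no sub-type name passed on their own, with 22.3, 23.0 and 25.8 CPM in WT and 62.6, 60.5 and 45.3 CPM in Arom mice (1.10 ± 0.16, adjusted p = 0.00251), where 1.73% of genes passed. Lymphatic endothelial cells, which are not in the endothelial sum, had 59.0, 24.8 and 37.1 CPM in WT and 39.1, 30.6 and 48.9 CPM in Arom mice. These overlapped (0.06 ± 0.30, adjusted p = 0.998).

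The 2 effects on *Ace* differed from each other. The effect in *Esr1*-high fibroblasts minus that in endothelial cells was -2.13 ± 0.32 on the log2 scale (edgeR quasi-likelihood test of the interaction, added after seeing the data, Benjamini-Hochberg adjusted p = 0.00610), where 4.77% of 13441 genes passed. With the mouse as a block it was -2.20 ± 0.21 (adjusted p = 0.00171). Without Arom1 and with no block it was -1.93 (adjusted p = 0.0595), and within the study's limits on cells -0.50 (adjusted p = 0.790). Against the other fibroblast-like cells the difference was -1.42 ± 0.37 (adjusted p = 0.141), where 0.337% of 13962 genes passed. Over all cells *Ace* was 133, 75.6 and 81.6 CPM in WT and 95.1, 96.9 and 121 CPM in Arom mice (0.12 ± 0.25, adjusted p = 0.733), so neither direction was visible in the sum. Over all cells 0 of the 5 members passed, while 23.6% of 15334 genes did with edgeR and 6144 genes had an unadjusted p under 0.05. DESeq2 called *Ren1* (adjusted p = 0.0486) and *Agt* (adjusted p = 0.00129) there.

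**Figure D5:**
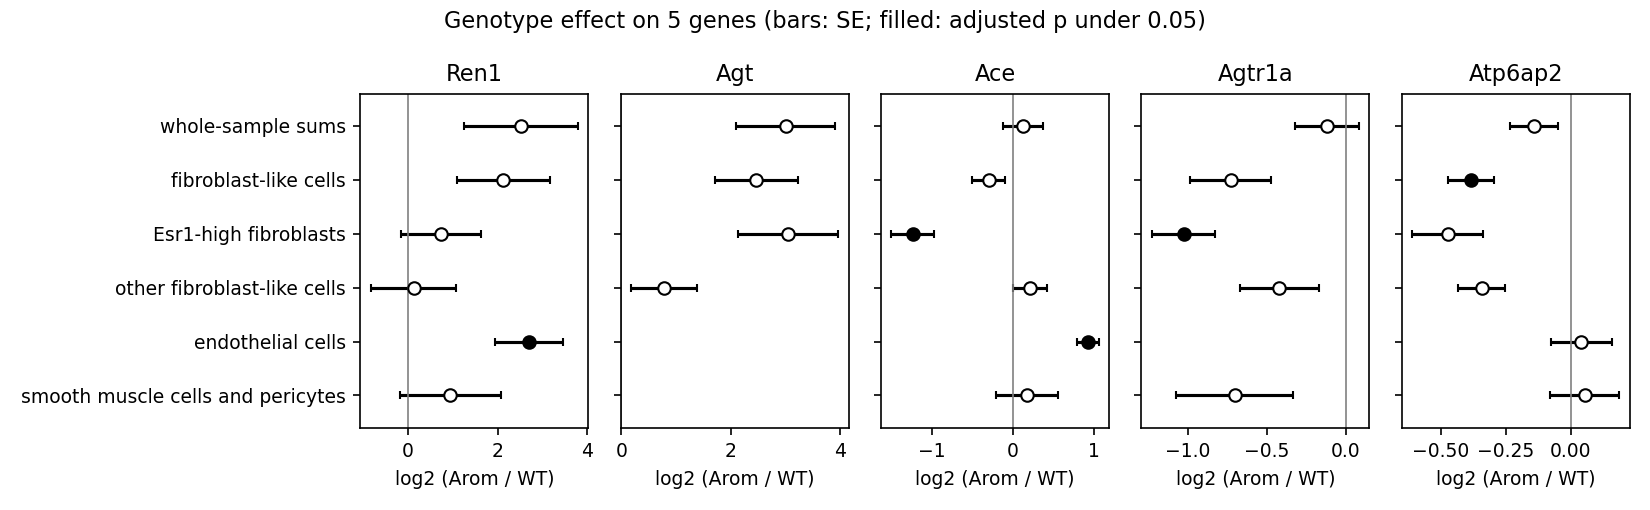
Genotype effect on each of the 5 genes as log2 of Arom over WT, by cell group, with bars of 1 SE and filled marks for an adjusted p under 0.05 (edgeR), each panel with an axis of its own. *Ace* lies at -1.24 in *Esr1*-high fibroblasts and at 0.92 in endothelial cells.

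*Agtr1a*, the gene of the type 1 angiotensin receptor at chr13:30336356-30382867, marked the pericytes, the cells that wrap small vessels. Its level there was 147, 174 and 92.3 CPM in WT mice and 74.4, 149 and 105 CPM in Arom mice, and the genotypes overlapped (-0.40 ± 0.28, adjusted p = 0.797). The lowest pericyte value lay above the highest value of any other group in any of the 6 mice. Mesothelial cells came next by mean level, with 22.9, 11.4 and 16.1 CPM in WT and 40.0, 33.0 and 21.5 CPM in Arom mice (1.01 ± 0.32, adjusted p = 0.134). Smooth muscle cells had 4.86 to 19.8 CPM. In endothelial cells, the other cells of the vessel wall, *Agtr1a* stayed at 0.154 to 0.749 CPM. Over smooth muscle cells and pericytes together 0 of the 4 members tested passed (edgeR), where 0.613% of 9469 genes passed and 1840 had an unadjusted p under 0.05, and *Agtr1a* had -0.70 ± 0.37 (adjusted p = 0.324).

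In *Esr1*-high fibroblasts *Agtr1a* was low and was lower in Arom mice, with 11.4, 12.4 and 10.2 CPM in WT and 5.17, 4.90 and 6.73 CPM in Arom mice (-1.03 ± 0.20, edgeR quasi-likelihood test, Benjamini-Hochberg adjusted p = 0.0182). The ranges did not overlap. The sub-clusters bear on this value, as sub-cluster 11 alone had 11.2, 10.4 and 11.2 CPM in WT and 8.38, 11.7 and 8.05 CPM in Arom mice, which overlapped (-0.36, adjusted p = 0.873). The call was also lost without any 1 mouse other than Arom3 (adjusted p = 0.0566 to 0.0737) and at resolution 1.2 (adjusted p = 0.377). In the other fibroblast-like cells, where 0.0148% of 13538 genes passed and 3626 had an unadjusted p under 0.05, 0 of the 5 members passed (edgeR), and *Agtr1a* had -0.42 ± 0.25 (adjusted p = 0.313).

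*Atp6ap2*, the gene of the (pro)renin receptor at chrX:12587759-12617051 on the plus strand, was found in every cell group. Macrophages had 356, 269 and 256 CPM in WT mice and 221, 192 and 240 CPM in Arom mice, and tenocytes 210.3, 242 and 231 CPM in WT and 217, 204 and 227 CPM in Arom mice. These did not stand apart beyond the spread over mice. Myonuclei had the least, 17.9 to 35.4 CPM, followed by capillary endothelial cells at 65.8 to 79.7 CPM and mesothelial cells at 66.7 to 82.6 CPM, whose ranges overlapped. In fibroblast-like cells *Atp6ap2* was 163, 170.4 and 160.0 CPM in WT and 117, 121 and 142 CPM in Arom mice, with no overlap (-0.38 ± 0.09, edgeR quasi-likelihood test, Benjamini-Hochberg adjusted p = 0.0387). It was the 1 of the 5 members to pass there, against 13% of 13983 genes in either direction and 5.74% that were lower, and the call was lost without any 1 mouse other than Arom3 (adjusted p = 0.0960 to 0.136), with the mouse number as a block (0.0639) and within the study's limits (0.169). In *Esr1*-high fibroblasts alone the levels were 179, 214 and 165 CPM in WT and 121, 128 and 152 CPM in Arom mice (-0.47 ± 0.14, adjusted p = 0.0561). The other sub-groups tested had smaller values, -0.17 ± 0.10 in *Tppp3* *Smoc2* fibroblasts, -0.18 ± 0.11 in tenocyte progenitors, -0.21 ± 0.14 in *Dmkn* fibroblasts and -0.14 ± 0.13 in tenocytes (adjusted p = 0.362, 0.542, 0.497 and 0.632), and the makeup of the fibroblast-like cells differed between genotypes. The *Mmp3*-high fibroblasts were not tested, as WT2 had 3 such cells. Their mean level was 196 ± 55.5 CPM in WT and 129 ± 28.5 CPM in Arom mice (SD, n = 3 each). The WT value includes these 3 cells of WT2, fewer than the 10 set for a level. Over the mice with at least 10 such cells the mean was 167 ± 58.8 CPM (SD, n = 5).

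The genes closest in distribution to each member were listed by Pearson r over the 19 groups, as a description. For *Ren1* they were *Agt*, *Pnoc* (r = 0.908), *Cacna2d3*, *Rxfp2* and *Frzb*, of which *Pnoc* was also a marker used to name the *Esr1*-high cells. For *Agt* they were *Ren1*, the noradrenaline transporter gene *Slc6a2* (r = 0.906), *Pgr*, *Lrrn2* and *Pappa*. *Ace* was closest to *Fbln2* (r = 0.914) and *Ly6a*, both known from mesenchymal progenitors, and to *Nipal2*, *Zfp423* and *Plpp3*. *Agtr1a* was closest to *Pla2r1* (r = 0.947), *Nnmt*, *Acss3*, *Dzip1l* and *Pik3r2*. *Atp6ap2* was closest to *Atp6ap1* (r = 0.865), which encodes the other accessory subunit of the same proton pump, then to *Fnip1*, *Agpat4*, *Rragc* and *Vim*.

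Of a wider list of 32 renin-angiotensin genes that includes the 5 members, 27 had a row, and *Agtr1b*, *Mas1*, *Ctsg*, *Cyp11b1* and *Cyp11b2* were not analysed here. Among the 22 besides the members, 20 exceeded a mean of 10 CPM in some cell group. *Enpep*, whose product removes the first residue of angiotensin II, was highest in pericytes, at 145, 170.3 and 173 CPM in WT and 159, 164 and 179.5 CPM in Arom mice, the group that also led for *Agtr1a*. *Cma1*, *Mcpt4* and *Cpa3*, known as mast cell protease genes, were highest in the dendritic group, with 0 to 333, 0 to 261 and 0 to 122 CPM over the mice. No group was named as mast cells, and whether such cells lie within the dendritic group was not tested. *Anpep*, an aminopeptidase that works after *Enpep*, was at 49.1 to 95.7 CPM in tenocyte progenitors and at 59.9 to 80.8 CPM in *Dmkn* fibroblasts, which did not differ beyond the spread over mice.

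In *Esr1*-high fibroblasts 15 genes of the wider list besides the members were tested and 3 passed, where 14.3% of all genes tested did. *Hsd11b2*, whose product shields the mineralocorticoid receptor from glucocorticoids, was higher in Arom mice, at 3.07, 0 and 3.18 CPM in WT and 47.0, 47.9 and 5.34 CPM in Arom mice (3.95 ± 1.07, adjusted p = 0.0457). Arom3 was close to the WT mice and far below the other Arom mice. *Rnpep* (-0.82 ± 0.16) and *Lnpep* (-0.54 ± 0.13), genes of aminopeptidases that act on angiotensin peptides, were lower. The median log2 fold change over the 15 genes was -0.09, against -0.01 over all genes tested. In all fibroblast-like cells 4 of 21 tested passed, against 13% of all genes tested, and of these *Hsd11b2* was higher, and *Nr3c2*, the mineralocorticoid receptor gene (-1.49 ± 0.21), and *Anpep* (-0.46 ± 0.10) were lower. In endothelial cells 4 of 12 were higher and none lower (edgeR), against 8.19% of all genes tested that were higher, namely *Anpep* (1.47 ± 0.33), *Prep* (0.74 ± 0.21), *Ctsd* (0.54 ± 0.15) and *Prcp* (0.46 ± 0.13), with a median of 0.35 against -0.01 over all genes. Within venular, capillary, arterial, lymphatic and other endothelial cells tested singly, 0 of the 9 to 12 list genes tested passed (edgeR). Of all genes tested 130 of 9382, 55 of 9710, 109 of 9153, 0 of 7652 and 157 of 9064 passed there, in that order. The venular cells, whose part of the endothelial cells was larger in Arom mice, were the group with the highest mean *Prep* level. The part of that makeup in the result was not tested. In smooth muscle cells and pericytes 0 of 13 passed (edgeR), against 0.613% of all genes tested.

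Of 16 genes known from renin cells of the kidney, 15 had a row, and *Akr1b7* was not analysed here. *Gja4*, the gap junction gene of vessel walls, was at similar levels in pericytes (mean 177 CPM), smooth muscle cells (172 CPM) and arterial endothelial cells (166 CPM), whose ranges over mice overlapped, and *Gja5* was highest in arterial endothelial cells (mean 116 CPM). Both genes were among the markers used to name the arterial cells, so their arterial levels are not independent of that naming. *Hoxd10*, a HOX gene, was highest in lymphatic endothelial cells, at 14.9 to 28.0 CPM, followed by *Esr1*-high fibroblasts, at 7.25 to 26.1 CPM. In *Esr1*-high fibroblasts 11 of these genes were tested, and 3 were lower in Arom mice, against 7.63% of all genes tested. These were *Nfia*, a transcription factor gene (-0.67 ± 0.14), *Pde3a*, a phosphodiesterase gene (-0.85 ± 0.16), and *Ptger4*, a prostaglandin E2 receptor gene (-1.44 ± 0.28). The median over the 11 was -0.27 against -0.01 over all genes. In endothelial cells *Ptger4* (-1.05 ± 0.22) was lower too.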

How the data were processed

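The authors deposited 1 table of counts, whole UMI counts per gene and barcode with no normalization, from 10x Genomics 3′ libraries of 6 LAM tissues (Cell Ranger 3.0.2 and mm10, per the submitters' processing notes). Barcode names gave the mouse and no column was left unmapped. Depth is 64958237 to 111826460 UMIs per mouse, and intervals from counts cover counting error only.

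Barcodes were log-normalized to 10000 UMIs, and 2000 variable genes, without those of the lists below, gave 30 principal components, 20 neighbors and Leiden clusters (resolution 0.8, seed 1, scanpy 1.11.5). A cluster was named from at least 3 markers, each seen in 10% of its cells and at 2 times its lower quartile among clusters. It was left as mixed where 2 of its 10 top genes marked other types, and left unnamed where the rule found no type. Barcodes were marked as doublets by Scrublet scores at a rate of 0.8% per 1000 barcodes, kept in the main analysis and left out in an alternative. Levels were taken over at least 10 cells of a mouse, and tests over at least 20 with all barcodes, although the alternatives had as few as 4 *Esr1*-high cells in a mouse. Differences between cell groups of the same mice were also fitted with the mouse as a block.

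UMIs were summed per mouse and group and compared with edgeR 4.0.16 (quasi-likelihood test, TMM, filterByExpr, Benjamini-Hochberg over all genes tested, threshold 0.05, R 4.3.3), with DESeq2 1.42.0 as an alternative. The steps were tested on simulated data. SE is the fold change over the square root of F. Alternatives were RLE size factors, no filter, a replicate block, each mouse left out, the study's limits on cells (200 to 2500 genes, at least 1000 UMIs, at most 5% mitochondrial UMIs), the mitochondrial limit alone, no doublets, and resolution 1.2. Every barcode was the main set because the limit of 2500 genes removes 25.5 to 50.0% of barcodes per mouse.

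On each of 3 dates a WT mouse and an Arom littermate were processed, per the study's methods, but which number belongs to which date is not stated. Same-numbered mice deviated together in the endothelial sums (r = 0.256, 0.159 and 0.339). In no other comparison was each r over 0.1, although in smooth muscle cells and pericytes r was 0.173, 0.0908 and 0.248. A date or litter belongs to the mouse and not to a cell group, so these r cannot tell whether the numbers pair the mice. The block by number was therefore an alternative in every group.

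The members and both gene lists were chosen with earlier results of these data known. The members were always named. List genes were named where called, or above 10 CPM in a cell group, and the 5 genes most alike in distribution were named for each member. Some list genes that the rule names are not reported here. Sequences are RefSeq's for GRCm38.p6.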

Additional observations from a re-analysis of the deposited data

Results flagged for a closer look

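*Ace* changed in opposite directions in 2 cell groups of the same mice, and the difference of the effects was itself tested. The effect of genotype in *Esr1*-high fibroblasts minus that in endothelial cells was -2.13 ± 0.32 on the log2 scale (edgeR quasi-likelihood test, Benjamini-Hochberg adjusted p = 0.00610), a comparison chosen after seeing the data. With the mouse as a block it was -2.20 (adjusted p = 0.00171). Every Arom mouse was below every WT mouse in *Esr1*-high fibroblasts and above every WT mouse in endothelial cells. Over its 14 alternatives the difference ran from -2.47 to -0.50, with adjusted p values from 1.84e-04 to 0.790. It missed the threshold without Arom1 (-1.93, adjusted p = 0.0595) and within the study's limits on cells (-0.50, adjusted p = 0.790), where few WT *Esr1*-high cells were left. The same difference for *Ren1* passed only with the mouse as a block (-1.87, adjusted p = 4.15e-04), and not without (-1.89, adjusted p = 0.483). Its endothelial level was 1.03 to 1.80% of that in all cells of the same mouse, a share not read as expression here. Groups of 3 mice are too small for a search for outlying mice, so WT1 and Arom3 were singled out after their values were seen.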

How the results depend on the processing

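*Agt*, *Agtr2* and *Hsd11b2* each had a WT mouse with 0 UMIs in *Esr1*-high cells, and 3 mice per genotype limited every test. Depth, the number of cells and a low level were not told apart in these zeros. Of 723 values of the members over the alternatives, 611 kept direction and side of the threshold, 43 lost and 36 gained the call, and 33 changed sign. Of the 33, 1 had been called, *Ace* in *Esr1*-high fibroblasts, at 0.42 within the study's limits, where *Ace* in fibroblast-like cells was 0.27. At most 5% mitochondrial UMIs gave *Atp6ap2* -0.0301 in endothelial cells, *Ace* -0.26 and *Atp6ap2* -0.14 in smooth muscle cells and pericytes, and *Ace* -0.0224 over all cells. Without 1 mouse, *Atp6ap2* ran from -0.0502 to 0.11 in endothelial cells, -0.0082 to 0.11 in smooth muscle cells and pericytes, -0.13 to 0.0288 in arterial cells, -0.12 to 0.0354 in lymphatic cells and -0.26 to 0.0173 in pericytes. *Ace* ran from -0.21 to 0.56 in smooth muscle cells and pericytes, -0.0441 to 0.46 over all cells, -0.23 to 0.42 in lymphatic cells and -0.66 to 0.31 in mesothelial cells. *Ren1* ran from -0.91 to 3.61 in smooth muscle cells and pericytes and -0.33 to 1.84 in tenocyte progenitors, and *Agtr1a* from -0.28 to 0.10 over all cells. The difference between *Esr1*-high and endothelial cells ran from -3.48 to 0.62 for *Agt* and -0.26 to 0.41 for *Agtr1a*, the latter 0.0065 with a block and 0.53 for sub-cluster 11 alone. Within the study's limits it was 2.34 for *Agtr1a* and -0.50 for *Ace*, and the fitted 6.36 for *Agt*, with no UMI in WT *Esr1*-high cells there, is no bound. Genes called numbered 1811 in fibroblast-like cells, 1701 in *Esr1*-high fibroblasts, 1692 in endothelial cells, 58 in smooth muscle cells and pericytes, 3612 over all cells and 47 for the difference between *Esr1*-high and other fibroblast-like cells. Leaving out 1 mouse at a time gave 2 to 4155, 280 to 2344, 408 to 1739, 0 to 820, 0 to 4877 and 0 to 289, in that order. DESeq2 gave 2945, 190 and 5527 in fibroblast-like cells, in smooth muscle cells and pericytes and over all cells. The study's limits gave 1 in fibroblast-like cells, 27 in *Esr1*-high fibroblasts, 766 in endothelial cells, and 0 both in smooth muscle cells and pericytes and over all cells. The mitochondrial limit alone gave 980 in *Esr1*-high fibroblasts, 0 in smooth muscle cells and pericytes and 2394 over all cells. Resolution 1.2 gave 14 in *Esr1*-high fibroblasts and 181 in smooth muscle cells and pericytes, sub-cluster 11 alone, chosen after seeing the data, gave 36, and no filter gave 311 in smooth muscle cells and pericytes. A block for the mouse number gave 2829 in endothelial cells and 504 in smooth muscle cells and pericytes, a block for the mouse gave 400 for the difference, and with the number as block *Agt* in *Esr1*-high fibroblasts passed (3.28, adjusted p = 0.00105), while *Atp6ap2* in fibroblast-like cells did not (adjusted p = 0.0639). In the *Esr1*-high sums the same-numbered mice were correlated at 0.228, -0.04 and 0.127, which cannot tell whether the numbers pair the mice. The share of *Ren1* UMIs in *Esr1*-high fibroblasts differed by 21.3 to 30.7 points without 1 mouse, by 81.0 points at resolution 1.2 and by 2.88 points in the tenth run of columns. The difference in the effect on *Ace* between *Esr1*-high and endothelial cells was -2.41 to -1.93 without 1 mouse. Causes were not tested, except that leaving out mice and the limits on cells leave fewer samples or cells.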

Other observations

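*Agt* shared an uneven pattern among Arom mice with *Hsd11b2* and with *Agtr2*, the gene of the type 2 angiotensin receptor, which was singled out after its values were seen. In *Esr1*-high fibroblasts *Agtr2* was at 0.279, 0 and 0 CPM in WT mice and at 10.7, 8.87 and 0.264 CPM in Arom mice. Arom1 and Arom2 were high for all 3 genes and Arom3 was near the WT mice. *Ren1* did not share it, as Arom3 lay between Arom1 and Arom2. In these cells *Pgr* was 131, 203 and 110.1 CPM and *CYP19A1* 7.85, 8.01 and 7.26 CPM in Arom1, Arom2 and Arom3. Arom3 also had fewer *Mmp3*-high fibroblasts, 49 against 832 and 1564, and *Agt* there was at 53.9, 34.7 and 1.41 CPM.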
